A study of Rattus norvegicus with 6 samples.

Results

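The genes described here code for the initiation and elongation factors of cytosolic protein synthesis, and they were followed across 3 diabetic and 3 control rat retinas. They were chosen by name: every protein-coding entry of the deposited gene table whose symbol begins with Eif or Eef followed by a digit was taken, which gave 63 of 34170 entries, 50 of them Eif genes and 13 Eef genes. Eef1aknmt also has such a symbol but is annotated as a processed transcript, and it was left out. The entries described as eIF5 and as eIF3 subunit H carry other symbols and were therefore not among the 63. Some of the 63 code for enzymes that modify a factor (kinases, methyltransferases) or for proteins that bind one, and these are described as such.

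The retinas came from male Sprague-Dawley rats, an outbred stock, labelled as weighing about 100 g, and poly-A RNA of the whole retina was sequenced. The 3 diabetic rats had been given streptozotocin, a toxin of the insulin-producing beta cells, into the peritoneum at 60 mg/kg on 5 consecutive days after a 12 h fast, and they counted as diabetic above 16.7 mmol/L blood glucose 1 week after the last dose. The 3 control rats, labelled WT, had been given the citrate buffer in which the toxin was dissolved. Neither the age of the rats nor the interval between the last dose and collection is given in the sources used here. As every cell type of the retina is in each library, fewer cells of a type and less RNA per cell cannot be told apart.

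Translation begins when a ternary complex of eIF2, GTP and initiator tRNA joins the small ribosomal subunit together with eIF1, eIF1A, eIF3 and eIF5. The eIF4F complex, made of the cap-binding eIF4E, the scaffold eIF4G and the helicase eIF4A, brings the subunit to the capped messenger RNA, and eIF5B then joins the large subunit. During elongation eEF1A delivers aminoacyl-tRNA, eEF1B reloads it with GTP, and eEF2 moves the ribosome along by a codon. Both phases are throttled by phosphorylation: kinases that phosphorylate eIF2α block the exchange factor eIF2B, unphosphorylated 4E-BP proteins hold eIF4E away from eIF4G, and eEF2 kinase inactivates eEF2. All of that is regulation of proteins, and the values given here are messenger RNA levels.

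Levels are in FPKM, fragments scaled to gene length and to a divisor per library, so they can be compared between genes, and ± gives the SD over 3 libraries throughout. The divisor was 1.04, 1.04 and 0.988 times the summed fragments in diabetic 1, 2 and 3. In control 1, 2 and 3 it was 1.01, 0.974 and 0.983 times that sum. Scaling the libraries again by the median ratio of their genes changed almost nothing. A median difference near 0 over all genes is what such scaling gives and is not a result. The fragments behind the values numbered between 16277864 and 19115426 in the diabetic libraries and between 12417686 and 16941864 in the control libraries. For a 1 kb gene, 3 fragments amounted to 0.158 to 0.248 FPKM, depending on the library. The summed level of 14 retinal marker genes was 28995, 27080 and 30979 FPKM in diabetic 1, 2 and 3, and 32710, 36346 and 35432 FPKM in control 1, 2 and 3, so it was lower in each diabetic library. Summed lens markers were between 6.09 and 27.1 FPKM in the diabetic libraries, and at 7.14 and 22.6 FPKM in control 1 and 2 against 219 FPKM in control 3, a library that also stood apart for many of the genes described here. Control 3 had the lowest control level for 29 of the 42 factor genes with a negative difference and the highest for 12 of the 21 with a positive one, which is the side nearer to the diabetic libraries. The part of the retinal and lens markers in the differences given here was not tested. Differences are log2(FPKM + 0.5), diabetic minus control, with 95% intervals, and p-values are from limma fitted to all 16363 genes that averaged 0.5 FPKM or more.

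All 63 factor genes were detected, and all 63 passed that filter. Their means over the 6 libraries ran between 0.566 FPKM for the methyltransferase gene Eef1akmt3 and 1050 FPKM for Eef1a1, which ranked at place 26 among all protein-coding entries of the retina. The median of the 63 means was 30.8 FPKM, 52 genes were at 10 FPKM or more and 9 at 100 FPKM or more: Eef1a1, Eef2, Eif1, Eif4a2, Eif5a, Eif4g2, Eif4a1, Eef1g and Eif4h. The core machinery was therefore abundant in this tissue, while the enzymes that modify it (eEF1A methyltransferases, eIF2α kinases, eEF2 kinase) and the 4E-BP genes mostly lay at the lower end.

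No factor gene passed the adjusted threshold of 0.05, and neither did any other gene of the table (0%), the smallest adjusted p being 0.128 among the factor genes and 0.127 over all genes (limma). At an unadjusted p below 0.05 there were 22 factor genes, 34.9% of the 63, against 19.9% of all tested genes. Of the 22, 17 were lower in the diabetic retinas, where 10.7% of all genes were, and 5 were higher, where 9.15% of all genes were. The levels of the 3 diabetic and 3 control libraries did not overlap at all for 25 of the 63 (39.7%, against 26.2% of all genes), and 17 of these were lower in diabetic retinas (13.6% of all genes) and 8 higher (12.7%). Of the 63 differences, 42 were negative (49.9% of all genes were), and their median was -0.08 against 0.00 over all genes, with a range of -0.44 for Eif2b2 to 0.76 for Eef1akmt3. By library, the median of the 63 relative to the control mean was -0.07, -0.16 and -0.12 in diabetic 1, 2 and 3, and 0.00, 0.06 and -0.07 in control 1, 2 and 3. The shift of the group as a whole was thus small and near the level of control 3, and the count of 22 went down to 10 without diabetic 2 and to 12 without control 2, while the median was -0.14 without control 3. When FPKM were rescaled to TPM, the median of all genes moved to 0.13 and that of the factor genes to 0.06, the split of the factor genes at an unadjusted p below 0.05 turned to 12 higher and 7 lower, and that of all genes to 3009 higher and 692 lower, against 1498 and 1757 in FPKM. Relative to that shift, 41 of the 63 lay below the median of all genes in TPM and 42 of 63 in FPKM. After quantile normalization 13 of the 63 had an unadjusted p below 0.05 (7 higher, 6 lower), against 18.1% of all genes (limma). The median of the 63 was then -0.030 against -0.003 over all genes, so most of the shift was gone.

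**Figure D1:**
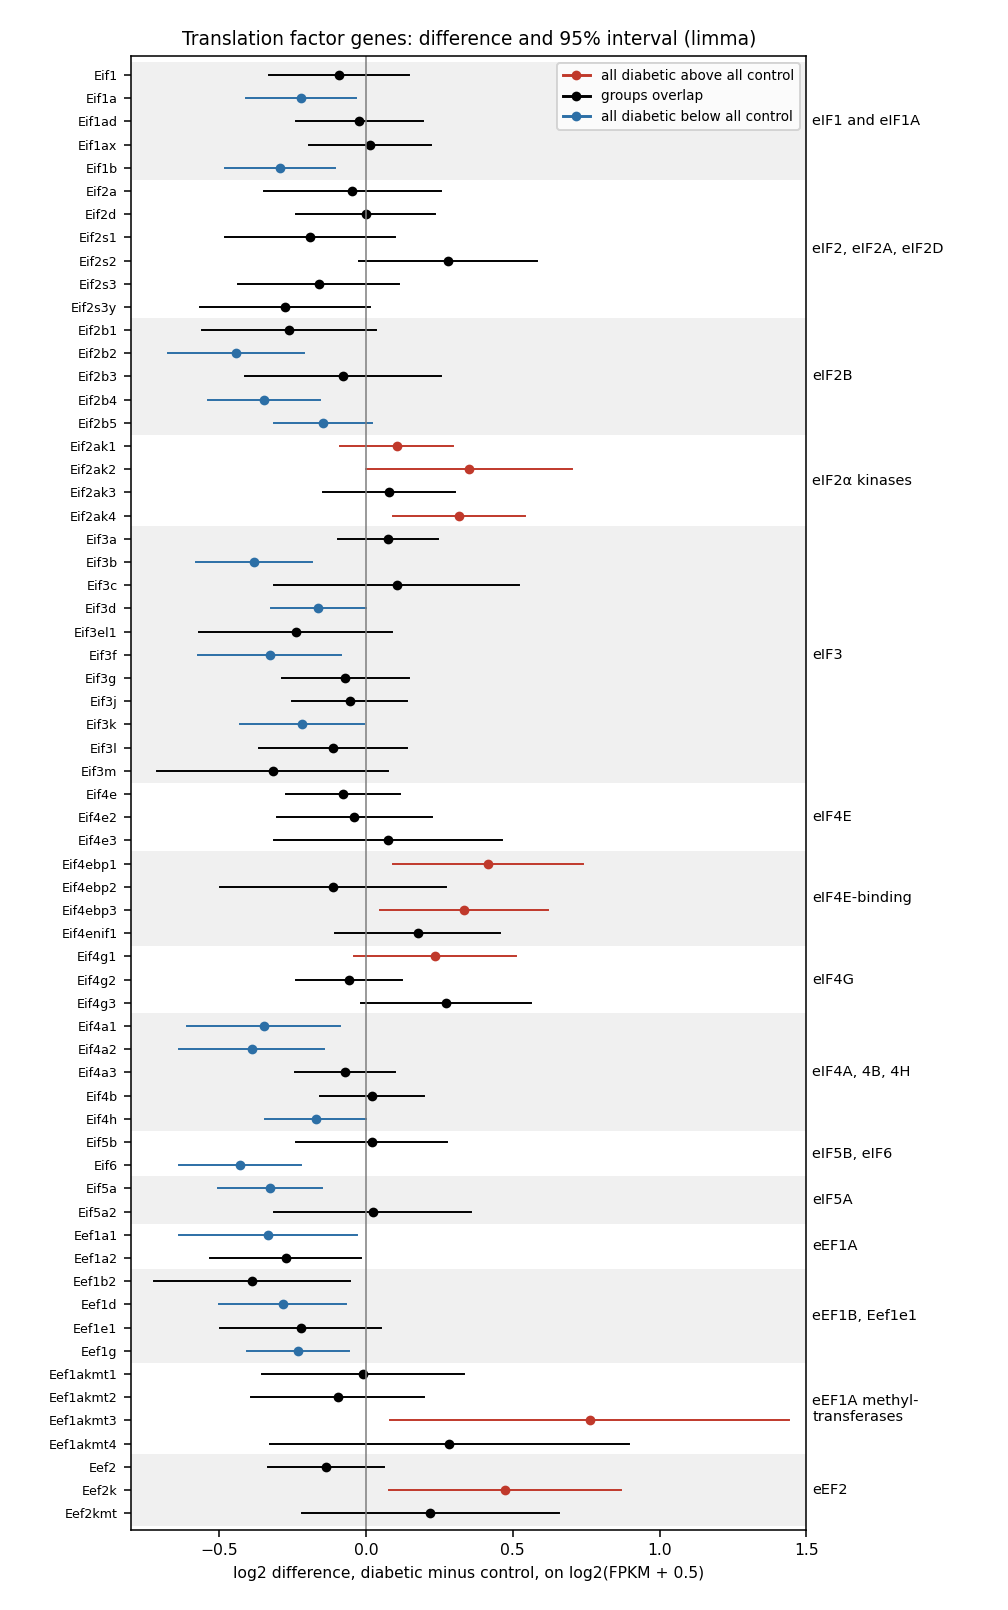
Log2 difference of each of the 63 factor genes, diabetic minus control, on log2(FPKM + 0.5), grouped by role down the page. Points are differences and bars their 95% intervals from limma (n = 3 each); red marks genes whose 3 diabetic libraries all lie above the 3 control libraries, blue those all below, and black those that overlap. The eIF2B, eEF1A and eEF1B groups lie left of 0 and the eIF2α kinases right of it, although Eif2b3 in TPM and Eif2ak3 without the length trend change side, and no gene passed the adjusted threshold.

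The ternary complex is the point at which initiation is most often regulated. Of 6 genes for eIF2 and the alternative initiator tRNA carriers eIF2A and eIF2D, 5 had a negative difference and none had an unadjusted p below 0.05, with a median of -0.10. Eif2s1, the α subunit that carries the regulatory serine, had 42.8, 38.0 and 37.0 FPKM in diabetic 1, 2 and 3 and 47.8, 50.0 and 37.6 FPKM in control 1, 2 and 3, a difference of -0.19 (95% interval -0.48 to 0.10, adjusted p = 0.428, limma). Eif2s3, the γ subunit that binds GTP and the tRNA, had 37.8, 32.8 and 36.1 FPKM in diabetic and 40.5, 45.4 and 34.3 FPKM in control libraries. Its copy on the Y chromosome, Eif2s3y, had 27.8, 26.3 and 26.6 FPKM in diabetic and 34.4, 37.4 and 27.1 FPKM in control libraries, below the X-linked gene in every library. For these 3 genes the groups overlapped only through control 3, which lay among the diabetic libraries.

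Eif2s2, the β subunit that contacts eIF5 and eIF2B, stood against the other subunits. It had 99.1, 80.4 and 95.1 FPKM in the diabetic libraries and 77.7, 85.1 and 64.0 FPKM in the control libraries, which overlap because diabetic 2 lies below control 2. The difference of 0.28 (95% interval -0.02 to 0.58) did not pass (adjusted p = 0.280, limma). As a ratio within each library, which no library-wide scaling can alter, Eif2s2 over Eif2s1 was 2.32, 2.12 and 2.57 in diabetic retinas and 1.63, 1.70 and 1.70 in control retinas. Against Eif2s3 the ratio was 2.62, 2.45 and 2.64 in diabetic and 1.92, 1.88 and 1.87 in control retinas, with means of 2.57 ± 0.104 in diabetic and 1.89 ± 0.0289 in control retinas. Both ratios were higher in every diabetic library than in any control library. These were 2 of 12 ratios, chosen after their values were seen, so no test is given for them.

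The promoter of Eif2s2 is shown because it was the only one of the 57 matched to hold the composite element TGATGCAA, to which ATF4 and C/EBP proteins are known to bind when eIF2α is phosphorylated. Promoter windows came from RefSeq on GRCr8, reach from 250 bases before to 50 bases after the annotated start, and were found for 57 of the 63 genes. The bases before the start of Eif2s2, chr3:163855571-163855820 on the minus strand, are given 5′ to 3′ with the element in capitals.
Eif2s2: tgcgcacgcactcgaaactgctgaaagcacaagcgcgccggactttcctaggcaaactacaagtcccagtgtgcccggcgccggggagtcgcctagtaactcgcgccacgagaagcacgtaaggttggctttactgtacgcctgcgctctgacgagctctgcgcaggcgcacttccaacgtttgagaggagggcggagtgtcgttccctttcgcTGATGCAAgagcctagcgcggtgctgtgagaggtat
The element occurred on either strand in 266 of 33469 promoter windows (0.795%) and in 1 of the 57 factor genes. With any base at the sixth position (TGATGNAA) it occurred in 3.98% of all windows and in 2 factor genes, Eif2s2 and Eif3g. A match of letters is a description and does not show that a factor binds there.

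eIF2B, the exchange factor that phosphorylated eIF2 blocks, had a negative difference for all 5 of its subunit genes in FPKM, with a median of -0.26, and 2 of the 5 had an unadjusted p below 0.05, against 19.9% of all genes. In TPM, and without control 1, the sign of Eif2b3 was positive. Eif2b2, the β subunit (chromosome 6, 109043880 to 109051253, plus strand), had 11.2, 11.2 and 11.0 FPKM in diabetic 1, 2 and 3 and 14.6, 17.2 and 14.2 FPKM in control 1, 2 and 3. The means were 11.1 ± 0.0962 FPKM in diabetic and 15.4 ± 1.63 FPKM in control retinas, a log2 difference of -0.44 (95% interval -0.67 to -0.21, adjusted p = 0.130, limma), the most negative of the 63. Every diabetic library lay well below every control library, and the 3 diabetic values were nearly equal. Eif2b4, the δ subunit, had 27.0, 25.6 and 28.6 FPKM in diabetic and 32.7, 34.1 and 36.9 FPKM in control libraries, a difference of -0.35 (95% interval -0.54 to -0.16, adjusted p = 0.133, limma). Eif2b5, the catalytic ε subunit, had 29.7, 27.3 and 27.7 FPKM in diabetic and 30.5, 31.6 and 31.7 FPKM in control libraries, without overlap but with a difference of -0.15 (adjusted p = 0.302, limma). Eif2b1 (α) had a difference of -0.26 and Eif2b3 (γ) one of -0.08. The subunits thus had the same sign in FPKM and unequal sizes, between -0.08 and -0.44.

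The 4 kinases of eIF2α, each coupled to another stress, all had a positive difference, with a median of 0.21, and 3 of them had no overlap between groups, against 26.2% of all genes. With the length trend of each library removed, their median was 0.09 and 1 of the 4 was negative. Eif2ak4 (GCN2, which senses uncharged tRNA) had 8.84, 8.51 and 8.40 FPKM in diabetic and 6.33, 6.99 and 7.07 FPKM in control libraries, with means of 8.58 ± 0.227 FPKM in diabetic and 6.80 ± 0.406 FPKM in control retinas. Its difference of 0.32 (95% interval 0.09 to 0.54, adjusted p = 0.163, limma) did not pass, and was 0.11 without the length trend. Srp14 lies on the opposite strand within the same stretch, at means of 5.46 FPKM in diabetic and 5.20 FPKM in control retinas, and without strand marking reads of both cannot be told apart. Eif2ak2 (PKR, which senses double-stranded RNA) had 4.49, 5.35 and 4.59 FPKM in diabetic and 4.32, 3.61 and 3.13 FPKM in control libraries, a difference of 0.35 (adjusted p = 0.253, limma). Eif2ak1 (HRI, known as the haem-regulated kinase) had 19.2, 17.6 and 16.8 FPKM in diabetic and 16.4, 16.8 and 16.4 FPKM in control libraries, so its groups were separated only narrowly. Eif2ak3 (PERK, the kinase of the endoplasmic reticulum) had 14.6, 14.4 and 16.0 FPKM in diabetic and 14.0, 13.1 and 15.5 FPKM in control libraries, which overlap, and its difference of 0.08 was -0.02 with the length trend removed. Of the summed kinase level, Eif2ak4 made up 18.5 ± 0.220% in diabetic and 16.5 ± 0.943% in control retinas, and Eif2ak1 the most in both.

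The partners of this step were taken as a list of 13 genes for the eIF2α phosphatase and the GCN proteins, and 2 of the 13 (15.4%) had an unadjusted p below 0.05, a share under the 19.9% of all tested genes. Both were lower in diabetic retinas. Ppp1r15a (GADD34, the stress-induced subunit that directs the phosphatase to eIF2α) was at 14.9 ± 2.03 FPKM in diabetic and 21.5 ± 2.83 FPKM in control retinas, a difference of -0.52. Ppp1ca, a catalytic subunit of the phosphatase, was at 71.9 ± 2.99 FPKM in diabetic and 93.4 ± 4.76 FPKM in control retinas, a difference of -0.37. Neither passed the adjusted threshold, and the median of the list was -0.11.

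**Figure D2:**
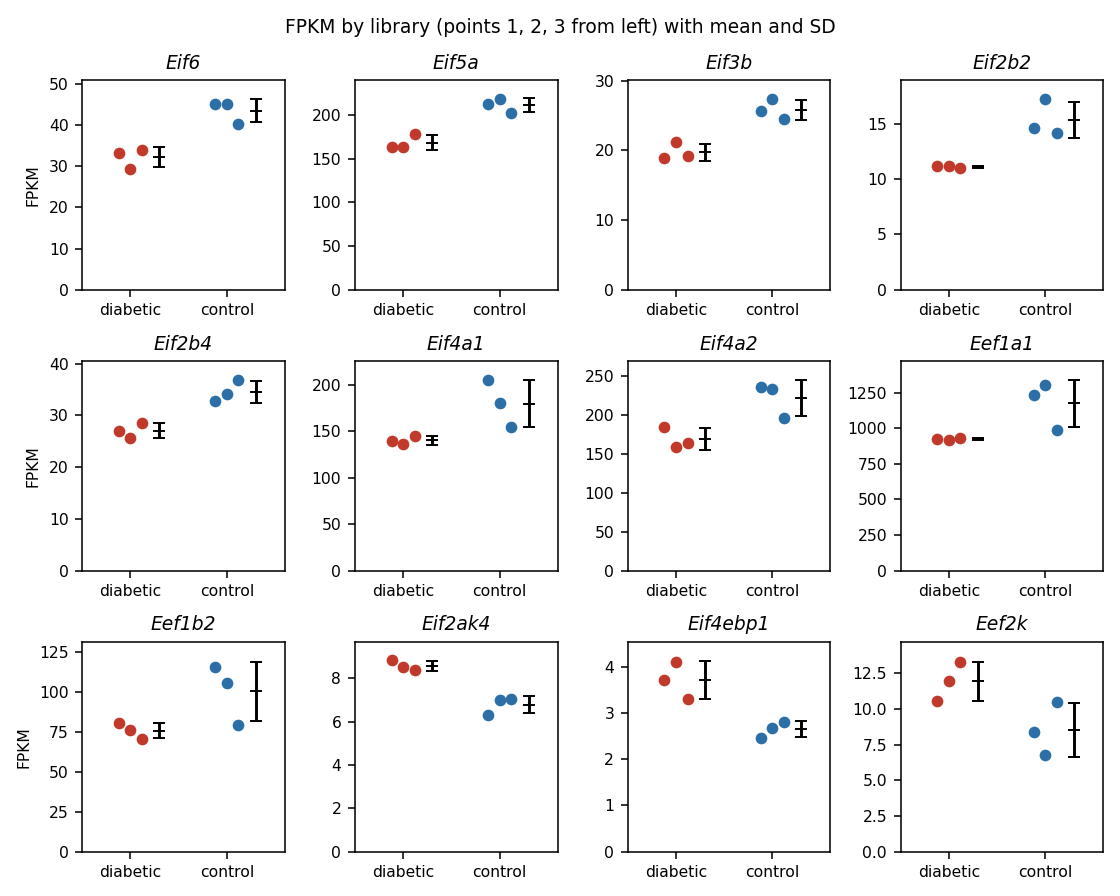
Level in FPKM of 12 factor genes in each library, with diabetic libraries at the left of each panel and control libraries at the right; points are libraries 1, 2 and 3 from the left, and bars the group mean and SD (n = 3 each). Eif6, Eif5a, Eif3b, Eif2b2 and Eif2b4 were lower in each diabetic library than in each control library, and Eif2ak4, Eif4ebp1 and Eef2k were higher.

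Among the scanning factors, 2 of 5 genes had an unadjusted p below 0.05 (19.9% of all genes), both lower in diabetic retinas and both without overlap (26.2% of all genes). Eif1b, a close relative of the start codon fidelity factor eIF1, had 77.9, 77.5 and 83.7 FPKM in diabetic and 93.2, 106 and 94.6 FPKM in control libraries, a difference of -0.29 (95% interval -0.48 to -0.11, adjusted p = 0.145, limma). Eif1a, which binds the ribosomal A site during scanning, had 34.0, 32.9 and 36.5 FPKM in diabetic and 38.5, 43.0 and 39.3 FPKM in control libraries, a difference of -0.22 (adjusted p = 0.198, limma). Eif1 itself, more abundant at 241 ± 27.2 FPKM in diabetic and 256 ± 12.6 FPKM in control retinas, differed by -0.09 (95% interval -0.33 to 0.15), and that sign turned in TPM (0.05) and after quantile normalization (0.13). Within each library Eif1 over Eif1b was 3.03, 2.79 and 3.22 in diabetic and 2.66, 2.55 and 2.63 in control retinas, again one of the 12 ratios. Eif1ax differed by 0.01 and Eif1ad by -0.02.

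eIF3, the largest initiation factor, bridges the small subunit and eIF4G. Of its 11 genes here 9 had a negative difference in FPKM (6 of 11 in TPM), with a median of -0.16, and 4 of them had an unadjusted p below 0.05 (19.9% of all genes), all lower in diabetic retinas. Eif3b, the scaffold subunit of the core (chromosome 12, 16285733 to 16310190, minus strand), had 18.9, 21.1 and 19.2 FPKM in diabetic 1, 2 and 3 and 25.6, 27.4 and 24.5 FPKM in control 1, 2 and 3, with means of 19.7 ± 1.22 FPKM in diabetic and 25.8 ± 1.43 FPKM in control retinas. Its difference of -0.38 (95% interval -0.58 to -0.18, adjusted p = 0.129, limma) left a wide gap between the groups. Eif3f had 81.5, 70.3 and 85.9 FPKM in diabetic and 97.9, 109 and 91.7 FPKM in control libraries, a difference of -0.33 (95% interval -0.57 to -0.08, adjusted p = 0.174, limma). Eif3k had 77.1, 69.3 and 78.4 FPKM in diabetic and 88.1, 94.0 and 79.9 FPKM in control libraries, a difference of -0.22 (adjusted p = 0.239, limma). Eif3d, which can itself bind the cap of certain messages, had 45.1, 43.0 and 42.9 FPKM in diabetic and 50.7, 49.2 and 46.8 FPKM in control libraries, a difference of -0.16 (adjusted p = 0.251, limma). For all 4 no diabetic library reached the lowest control library.

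The other eIF3 genes did not form a block. Eif3m had a difference of -0.32, but its controls were at 96.0, 111 and 69.4 FPKM (a coefficient of variation of 22.7%) against 75.2, 66.4 and 76.0 FPKM in diabetic libraries, so the groups overlapped. Eif3c had 65.6, 43.4 and 55.3 FPKM in diabetic and 47.0, 61.0 and 44.1 FPKM in control libraries, a spread within each group that exceeded the difference of 0.10. Eif3a, the largest subunit, differed by 0.07, Eif3el1 by -0.24, Eif3l by -0.11 and Eif3j, a loosely bound subunit, by -0.05. Eif3g differed by -0.07, which was positive in TPM (0.07), with quantile normalization (0.09) and without the length trend (0.04). The entry described as subunit H was at 43.3 ± 13.7 FPKM in diabetic and 53.0 ± 24.6 FPKM in control retinas, and a near copy of it carries the same symbol, so reads may be divided between them. Eif3el1, named as a subunit E copy, likewise has further subunit E-like entries outside the 63.

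For eIF4F, the cap-binding proteins showed little difference, and the helicases Eif4a1 and Eif4a2 were lower in diabetic retinas. The scaffolds Eif4g1 and Eif4g3 and the 4E-BP gene Eif4ebp1 were higher, while Eif4g2 and Eif4ebp2 had small negative differences. The entry Eif4ebp3 was also higher but may hold reads of another gene. None of these passed the adjusted threshold. Eif4e had 56.2, 55.1 and 58.2 FPKM in diabetic and 63.4, 61.9 and 54.2 FPKM in control libraries, a difference of -0.08 (95% interval -0.27 to 0.12, adjusted p = 0.634, limma) that was positive in TPM (0.06) and after quantile normalization (0.03). Eif4e2 (4EHP, a repressive cap-binding relative) differed by -0.04 and Eif4e3 by 0.08. Eif4a1, the main helicase, had 139.8, 136 and 145 FPKM in diabetic and 205, 180.4 and 154 FPKM in control libraries, with means of 140.2 ± 4.72 FPKM in diabetic and 179.8 ± 25.3 FPKM in control retinas and a difference of -0.35 (95% interval -0.61 to -0.09, adjusted p = 0.175, limma). Eif4a2, its near-identical paralog and the more abundant of the pair here, had 185, 159 and 164 FPKM in diabetic and 236, 234 and 196 FPKM in control libraries, a difference of -0.39 (95% interval -0.64 to -0.14, adjusted p = 0.144, limma). Both helicases were lower in each diabetic library than in any control library, with control 3 the nearest, and their ratio to each other overlapped between groups. Several snoRNA genes lie within both loci, and the paralogs can share reads.

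Eif4a3, a helicase of the exon junction complex rather than of eIF4F, differed by only -0.07 (95% interval -0.24 to 0.10), so its share of the 3 eIF4A genes was 16.1 ± 0.266% in diabetic and 13.6 ± 1.87% in control retinas. Of the helicase cofactors, Eif4h had 121, 116 and 129 FPKM in diabetic and 142, 136 and 134 FPKM in control libraries without overlap, a difference of -0.17 (adjusted p = 0.253, limma), and Eif4b differed by 0.02. Among the scaffolds, Eif4g1 had 20.1, 20.1 and 20.2 FPKM in diabetic and 14.6, 17.0 and 19.9 FPKM in control libraries, a difference of 0.23 (95% interval -0.04 to 0.51, adjusted p = 0.314, limma). The 3 diabetic values were almost identical and control 3 lay just under them. Eif4g3 had 52.8, 63.2 and 60.9 FPKM in diabetic and 46.5, 43.3 and 57.1 FPKM in control libraries, which overlap through control 3 (difference 0.27, adjusted p = 0.270, limma). Both are long, and with the length trend removed the difference was 0.13 for Eif4g1 and 0.14 for Eif4g3. That of Eif4g1 was also 0.13 without control 1. Eif4g2 (DAP5, which lacks the eIF4E-binding part) was the most abundant, at 181 ± 11.0 FPKM in diabetic and 188 ± 5.17 FPKM in control retinas, and made up 69.5 ± 2.46% of the 3 eIF4G genes in diabetic and 74.0 ± 3.23% in control retinas. Within each library Eif4g1 over Eif4a1 was 0.144, 0.148 and 0.139 in diabetic and 0.0712, 0.0940 and 0.129 in control retinas. This ratio was higher in every diabetic library than in any control library, and it leaves out the Eif4g1-like entry.

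Proteins that bind eIF4E came as 4 genes, of which 2 had an unadjusted p below 0.05 (19.9% of all genes), both higher in diabetic retinas. Eif4ebp1 (4E-BP1, the classical mTOR target) had 3.73, 4.12 and 3.31 FPKM in diabetic and 2.47, 2.69 and 2.82 FPKM in control libraries, with means of 3.72 ± 0.405 FPKM in diabetic and 2.66 ± 0.174 FPKM in control retinas. The difference of 0.42 (95% interval 0.09 to 0.74, adjusted p = 0.181, limma) rested on only 27 to 59 fragments per library, though no control library reached any diabetic one. Eif4ebp2, the form usually described as prevalent in neurons, had 8.02, 6.85 and 5.87 FPKM in diabetic and 6.11, 7.99 and 8.47 FPKM in control libraries, which overlap (difference -0.11, adjusted p = 0.741, limma). Eif4ebp2 over Eif4ebp1 was accordingly 2.15, 1.66 and 1.77 in diabetic and 2.47, 2.97 and 3.01 in control retinas. Eif4ebp1 over Eif4e was 0.0663, 0.0748 and 0.0569 in diabetic and 0.0390, 0.0434 and 0.0520 in control retinas. Eif4enif1 (4E-T, which carries eIF4E to sites of messenger RNA storage) differed by 0.18.

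Eif4ebp3 had 25.8, 25.7 and 27.2 FPKM in diabetic and 19.2, 18.5 and 24.9 FPKM in control libraries, a difference of 0.33 (adjusted p = 0.201, limma). This entry is 8986 nt long and spans 105910 bp, and in the RefSeq annotation Ankhd1 directly precedes Eif4ebp3, so the entry may hold reads of both genes and its level cannot be read as that of 4E-BP3 alone. With the length trend removed its difference was 0.12.

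The list for mTOR and MNK, the kinases upstream of the 4E-BPs and eIF4E, held 16 genes, of which 6 were higher and 1 lower at an unadjusted p below 0.05, where 9.15% of all genes were higher and 10.7% lower. The median was 0.08, none passed the adjusted threshold, and in TPM, where all genes shift to the higher side, 8 were higher and 0 lower at an unadjusted p below 0.05 (limma). The list was drawn up with earlier results of these data known. Sesn2 and Deptor, both inhibitors of mTOR complexes, had differences of 1.26 and 0.70, Tsc1, a brake on mTORC1, one of 0.46, and Mtor itself one of 0.23 (0.02 with the length trend removed). That of Deptor rested on only 86, 63 and 77 fragments in diabetic 1, 2 and 3 and 27, 32 and 33 in control 1, 2 and 3. Larp1, which binds the start of terminal oligopyrimidine messages, was at 20.1 ± 0.775 FPKM in diabetic and 15.3 ± 2.72 FPKM in control retinas, a difference of 0.39. Rps6kb1, an S6 kinase, had a difference of 0.16, while the other S6 kinase gene of the list, Rps6kb2, had one of -0.26 with overlapping groups. Ddit4, a stress-induced mTORC1 inhibitor, was the one lower gene at an unadjusted p below 0.05, with a difference of -0.22. Of the 16 differences 9 were positive and 7 negative.

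Factors of subunit joining and of the late steps included some of the clearest separations. Eif6, which keeps the large subunit from joining too early and takes part in its maturation (chromosome 3, 151356868 to 151363115, minus strand), had 33.2, 29.4 and 33.8 FPKM in diabetic 1, 2 and 3 and 45.1, 45.0 and 40.1 FPKM in control 1, 2 and 3. The means were 32.1 ± 2.41 FPKM in diabetic and 43.4 ± 2.82 FPKM in control retinas, and the difference of -0.43 (95% interval -0.64 to -0.22) had the smallest adjusted p of the 63 (0.128, limma), still short of the threshold. Eif5b, the GTPase of subunit joining, had 30.2, 25.4 and 30.3 FPKM in diabetic and 26.1, 27.0 and 31.6 FPKM in control libraries, a difference of 0.02 (95% interval -0.24 to 0.28). The entry described as eIF5 was at 65.6 ± 2.28 FPKM in diabetic and 65.3 ± 1.47 FPKM in control retinas. Of these 3 factors Eif6 alone had groups that did not overlap.

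Eif5a, which relieves stalls of elongation and is the protein that carries hypusine (chromosome 10, 56527085 to 56531483, minus strand), had 163, 164 and 178 FPKM in diabetic and 213, 218 and 202 FPKM in control libraries, with means of 168 ± 8.42 FPKM in diabetic and 211 ± 8.02 FPKM in control retinas. Its difference of -0.33 (95% interval -0.50 to -0.15, adjusted p = 0.131, limma) left the groups apart, while its paralog Eif5a2 overlapped, with 9.61, 7.62 and 7.54 FPKM in diabetic and 9.04, 8.37 and 6.95 FPKM in control libraries. A protein-coding entry on the opposite strand of Eif5a was at 15.1 FPKM in diabetic and 21.0 FPKM in control retinas, and reads of both cannot be told apart. Both enzymes that make hypusine were lower too. Dhps, which performs the first step, had 43.9, 43.0 and 42.8 FPKM in diabetic and 56.4, 57.8 and 51.2 FPKM in control libraries, a difference of -0.35. Dohh, which performs the second, had 36.6, 35.1 and 40.5 FPKM in diabetic and 48.0, 50.2 and 46.7 FPKM in control libraries, a difference of -0.37. These groups did not overlap for either enzyme (26.2% of all genes), and neither passed the adjusted threshold. Both genes are short, at 1502 nt for Dhps and 1511 nt for Dohh, and all tested genes of 693 to 1566 nt had a median difference of -0.12. In the list of 9 hypusine and diphthamide genes, 3 had an unadjusted p below 0.05 (19.9% of all genes), all lower in diabetic retinas: these 2 and Dph3 (-0.36), an early enzyme of the diphthamide that eEF2 carries.

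The elongation factors eEF1A and eEF1B had a negative difference for every gene of both groups in every setting tried, though not at one size. The filters, limma without a trend, protein-coding genes alone and the replicate block cannot change a difference, so the kept sign says nothing there. That of Eef1a1 lay between -0.46 and -0.08 over the 18 settings, with an unadjusted p below 0.05 in 8 of them, and that of Eef1g between -0.27 and -0.06, below 0.05 in 14. The smallest of both came after quantile normalization. Eef1a1 (chromosome 8, 85838869 to 85840818, minus strand) had 925, 921 and 929 FPKM in diabetic 1, 2 and 3 and 1236, 1302 and 986 FPKM in control 1, 2 and 3. The means were 925 ± 3.88 FPKM in diabetic and 1175 ± 167 FPKM in control retinas, a difference of -0.33 (95% interval -0.64 to -0.03, adjusted p = 0.219, limma). The diabetic values lay within a few FPKM of each other, and control 3 came closest to them. Eef1a2, the form typical of neurons and muscle, had 85.1, 76.2 and 69.3 FPKM in diabetic and 100.1, 96.4 and 82.4 FPKM in control libraries, a difference of -0.27 (95% interval -0.53 to -0.02, adjusted p = 0.232, limma), with diabetic 1 above control 3. Eef1a1 made up 92.3 ± 0.741% of the pair in diabetic and 92.6 ± 0.424% in control retinas, so the balance of the isoforms differed by less than the spread between libraries. An Eef1a1-like entry outside the 63 was at 6.36 ± 1.69 FPKM in diabetic and 8.0 ± 0.241 FPKM in control retinas, and near copies of Eef1a1 may take some of its reads.

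Of the subunits of eEF1B, Eef1b2 (the exchange subunit α) had 80.6, 76.0 and 70.9 FPKM in diabetic and 116, 106 and 79.6 FPKM in control libraries, a difference of -0.39 (95% interval -0.72 to -0.05, adjusted p = 0.204, limma), with diabetic 1 above control 3. Eef1g, the scaffolding γ subunit, had 130.1, 123 and 133 FPKM in diabetic and 154, 158 and 143 FPKM in control libraries, a difference of -0.23 (95% interval -0.41 to -0.06, adjusted p = 0.175, limma). Eef1d, the δ subunit, had 26.5, 24.2 and 26.1 FPKM in diabetic and 29.7, 34.8 and 29.5 FPKM in control libraries, a difference of -0.28 (adjusted p = 0.177, limma). The groups were apart for Eef1g and Eef1d. Eef1e1 is named with eEF1 but codes for a protein of the multi-tRNA synthetase complex, and it had 18.2, 17.9 and 15.5 FPKM in diabetic and 20.6, 22.4 and 17.6 FPKM in control libraries (difference -0.22). Over the 13 Eef genes, 7 had an unadjusted p below 0.05 (19.9% of all genes), of which 5 were lower and 2 higher in diabetic retinas, and the median was -0.14.

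Messages of several of these factors are known to begin with a run of pyrimidines, the terminal oligopyrimidine tract through which mTOR and LARP1 control their translation. The windows below, from RefSeq on GRCr8, run from 10 bases before the annotated start to 20 bases after it, with the longest run of C and T in capitals, and show the genes with the largest or best-known runs beside Eef1g, whose annotated start has no long run.
Eef1a1: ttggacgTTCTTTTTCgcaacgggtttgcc
Eef1b2: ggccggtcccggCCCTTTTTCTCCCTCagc
Eif3f: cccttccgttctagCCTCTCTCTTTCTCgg
Eif2s3: cagccgagcaTTTTCCTTTTCTCTCTgagc
Eef1g: ctgcggaatcaccatggcggCTggggtaag
These windows are chr8:88225050-88225079 on the minus strand, chr9:72074081-72074110 on the plus strand, chr1:172369052-172369081 on the plus strand, chrX:62933680-62933709 on the minus strand and chr1:215289805-215289834 on the plus strand. A run of at least 8 pyrimidines was present in 9 of 60 windows of factor genes (15.0%) and in 3601 of 33469 windows in all (10.8%). The 9 genes were Eef1a1, Eef1b2, Eif2a, Eif2s3, Eif3f, Eif3m, Eif4h, Eef1akmt1 and Eef1akmt2. In FPKM each had a negative difference, with a median of -0.17, where 42 of the 63 factor genes and 49.9% of all genes were negative. No window was found for Eif4b, Eef1d, Eif3el1, Eif4e3, Eif4ebp1 and Eef1akmt3, so their runs are not known here. A link between the runs and the differences was not tested. In TPM the differences of Eif2a, Eef1akmt1 and Eef1akmt2 were positive, and after quantile normalization that of Eif4h. With the length trend removed, those of Eef1akmt1 and Eef1akmt2 were positive as well. The annotated start need not be the start used in the retina.

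eEF2 and its regulators differed among themselves. Eef2 had 271, 240.4 and 268 FPKM in diabetic and 270.0, 295 and 292 FPKM in control libraries, a difference of -0.14 (95% interval -0.33 to 0.06, adjusted p = 0.408, limma) that was 0.00 in TPM and 0.06 after quantile normalization. Eef2k, the kinase that inactivates eEF2 (chromosome 1, 190780236 to 190842324, plus strand), had 10.6, 11.9 and 13.2 FPKM in diabetic and 8.37, 6.76 and 10.5 FPKM in control libraries, with means of 11.9 ± 1.34 FPKM in diabetic and 8.55 ± 1.89 FPKM in control retinas. Its difference of 0.47 (95% interval 0.08 to 0.87, adjusted p = 0.195, limma) was 0.36 with the length trend removed, and the lowest diabetic library was just above the highest control library. Eef2k over Eef2 was 0.0390, 0.0496 and 0.0495 in diabetic and 0.0310, 0.0229 and 0.0360 in control retinas, apart by a narrow margin. Eef2kmt, a methyltransferase of eEF2, differed by 0.22 (95% interval -0.22 to 0.66).

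**Figure D3:**
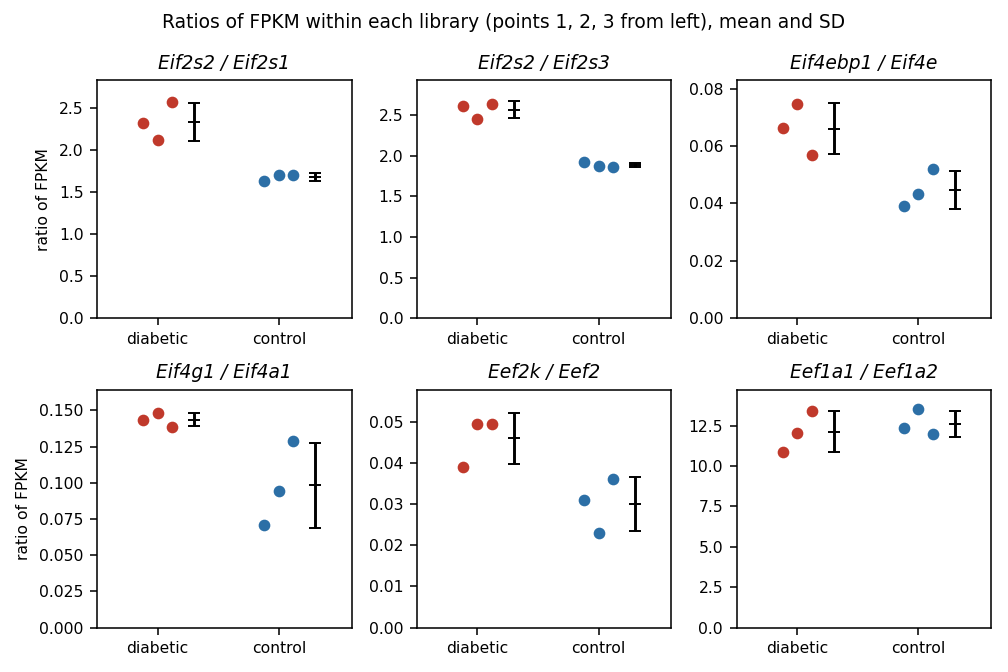
Ratios of FPKM between pairs of factor genes within each library, diabetic libraries at the left and control libraries at the right of each panel, with points for libraries 1, 2 and 3 from the left and bars for the group mean and SD (n = 3 each). Eif2s2 over Eif2s1 was 2.33 ± 0.226 in diabetic and 1.68 ± 0.0442 in control retinas, while Eef1a1 over Eef1a2 overlapped between the groups.

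Apart from Eef1akmt2, the methyltransferases of eEF1A were among the least abundant of the 63. Eef1akmt3 had 12, 14 and 6 fragments in diabetic 1, 2 and 3 and 3, 3 and 2 fragments in control 1, 2 and 3, or 0.910, 1.19 and 0.458 FPKM in diabetic and 0.254, 0.358 and 0.225 FPKM in control libraries. Summed over libraries these were 32 fragments in diabetic and 8 in control retinas, a ratio per depth of 3.16 (exact 95% interval 1.42 to 7.93, counting error only), and the fitted difference of 0.76 depends on the pseudocount (adjusted p = 0.214, limma). No control library reached any diabetic one, at counts too low to measure the size well. Eef1akmt4 differed by 0.28, Eef1akmt1 by -0.01 and Eef1akmt2 by -0.10, each with overlapping groups.

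The E-box CACGTG, which Myc and its relatives are known to bind, was looked for in the same windows. Per window it was present in 12 of 60 for factor genes (20.0%) and in 6.42% of all 33469, and per gene in 12 of 57 factor genes (21.1%) and in 7.08% of all 27457 genes with a window. It reads the same on both strands. The windows below, chosen because these genes lie on both sides of 0, show it in capitals for a pair that were lower in diabetic retinas (Eif3b, Eif5a) and a pair that were higher (Eif4g1, Eef2k).
Eif3b: actcgctgcacgCACGTGgctccgcgctag
Eif5a: aaggggcggggtCACGTGtgtgcgtcattg
Eif4g1: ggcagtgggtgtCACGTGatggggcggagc
Eef2k: acccggggcagcCACGTGagcccgggcgtg
On GRCr8 they are chr12:19334808-19334837, chr10:55143410-55143439 and chr11:93746404-93746433, all on the minus strand, and chr1:184824331-184824360 on the plus strand. The motif begins 57, 206, 54 and 77 bases before the annotated start. Of the 12 genes, 5 had a positive and 7 a negative difference, with a median of -0.11. No test was made of the share of promoters with the motif.

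Gene length moved with these differences, over all genes and over the 63 alike. The shortest 21 factor genes (693 to 1566 nt) had a median difference of -0.22, against -0.12 for the 3327 tested genes of that length, and 11 of the 21 had an unadjusted p below 0.05, against 807 of those 3327 (24.3%). The middle 21 (1567 to 2561 nt) had a median of -0.11 against -0.04 for 4115 genes, and the longest 21 (2562 to 8986 nt) had 0.07 against 0.07 for 6200 genes. The short and middle factor genes lay below genes of like length, and the long ones did not. Genes of like length were not of like level. The median level of the shortest 21 was 81.1 FPKM against 11.1 FPKM for all tested genes of that length. It was 18.7 against 11.6 FPKM for the middle 21, and 23.6 against 9.07 FPKM for the longest 21. The part of level in these differences was not tested. With the length trend of each library removed by lowess, 19 factor genes had an unadjusted p below 0.05, 15 lower and 4 higher, and the median was -0.06 against -0.01 over all genes. The 22 factor genes with an unadjusted p below 0.05 all kept their sign under every setting in which they were tested. They were picked by p in these same libraries, and several of the settings cannot change a difference, so a kept sign is a weak check. The lowest counts of the 22 still at an unadjusted p below 0.05 were 9 after quantile normalization and 9 without diabetic 2. Next came 11 without control 2 and 12 in TPM (limma).

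**Figure D4:**
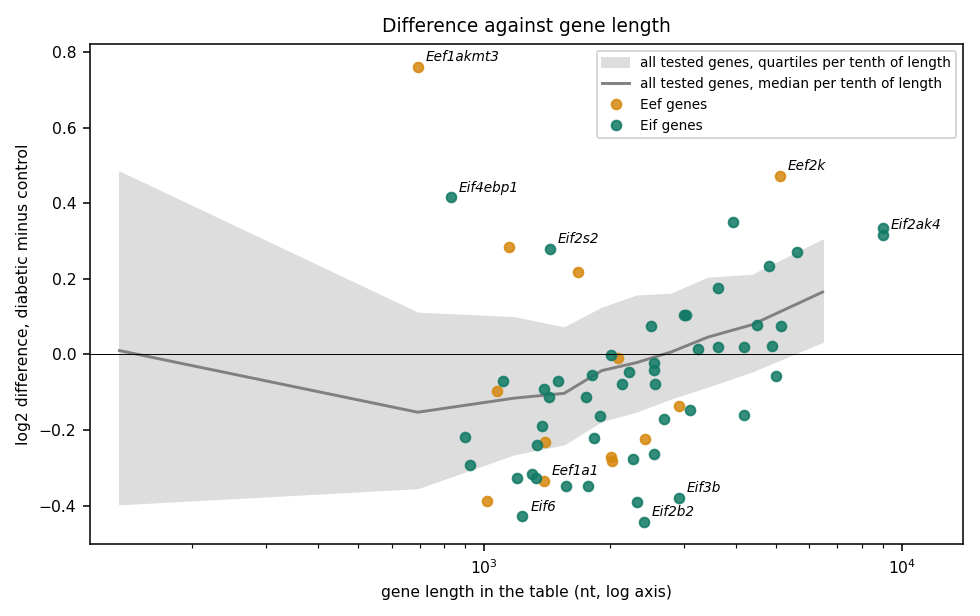
Log2 difference, diabetic minus control, against gene length in nt on a log axis for the 63 factor genes, green for Eif and orange for Eef genes. The grey line is the median of all tested genes in successive length classes of equal gene number, and the band reaches from their lower to their upper quartile. Most of the factor genes below 1567 nt lie under 0, with a median of -0.22, and those from 2562 nt upward have a median of 0.07.

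Termination and recycling factors and the translation factors of mitochondria were taken as lists for comparison. Of 13 tested genes of termination and recycling, 2 (15.4%) had an unadjusted p below 0.05, against 19.9% of all tested genes. Both were lower in diabetic retinas: Denr (-0.31) and Mcts1 (-0.41), partners that recycle the small subunit and help initiation to resume. The median of the list was -0.06, and in TPM 0.06, with 1 of the 13 still at an unadjusted p below 0.05. Of 10 tested mitochondrial factors none had an unadjusted p below 0.05 (limma), none passed the adjusted threshold, and the median was -0.03. In TPM 2 of the 10 were higher at an unadjusted p below 0.05.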

How the data were processed

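Poly-A RNA of 6 rat retinas was read in pairs, with a kit for which the labels' protocols name no strand marking, and alignment used HISAT2 2.0.5 according to the submitters' processing notes. No counting tool, genome build or annotation is given in the sources used here. What the authors deposited is 1 table of FPKM with gene length and coordinates, per the file headers, and the coordinates of genes printed here are those of the table. FPKM multiplied by gene length gave whole fragments within 0.05 for 100% of values. These rebuilt fragments gave the depths. Libraries were grouped by the labelled treatment, and p-values measure the spread between 3 rats per group, each labelled with its own body weight.

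Genes averaging 0.5 FPKM or more were tested with limma 3.58.1 (R 4.3.3) on log2(FPKM + 0.5) (group as the only term, eBayes with a trend, two-sided, Benjamini-Hochberg adjustment over all 16363 genes, threshold 0.05). A log2 difference on this scale understates changes of genes at low levels. Factor genes were named where they had an unadjusted p below 0.05, were among the most abundant of their role, or belonged to a fixed set of regulators, and the others are given by difference. The factor genes, roles, comparison lists and markers were chosen with earlier results of these data known. The 12 ratios, the promoter motifs and the start windows were chosen after values were seen. Of the 63 factor genes 17 overlap another entry, 7 of them a snoRNA and 6 a protein-coding gene on the opposite strand, and such entries can share reads. Promoter sequences were RefSeq's on GRCr8, and no coordinates were converted between builds. Settings tried besides the main one numbered 18: pseudocounts, filters, TPM, quantile and median ratio scaling, removal of the length trend by lowess (span 0.5), limma without a trend, voom, protein-coding genes alone, a replicate block, and leaving out each library. The limma step was tested on simulated data. Every pair of libraries differed by more than sampling noise (the lowest chi-square per degree of freedom was 10.7). Counting intervals cover counting error only. Figures were drawn with matplotlib 3.10.9.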

Additional observations from a re-analysis of the deposited data

How the results depend on the processing

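No factor gene passed the adjusted threshold under any of the 18 settings. Over all genes, 2 passed with voom on the rebuilt fragments, and between 0 and 4 when a library was left out (4 without diabetic 1, and 1 each without diabetic 2 and control 2), none of them factor genes. The count of all genes at an unadjusted p below 0.05 ranged between 2066 (without diabetic 2) and 4015 (without control 3) over the libraries left out, and that of factor genes between 10 (without diabetic 2) and 29 (without control 3), with 12 without control 2. It was 13 after quantile normalization (7 higher, 6 lower), where 18.1% of all genes were below 0.05 (1543 higher, 1425 lower). The median of the factor genes there was -0.030 against -0.003 over all genes. With voom the count was 21 (8 higher, 13 lower), where all genes split into 2213 higher and 1201 lower. The median difference of the factor genes lay between -0.14 (without control 3) and -0.052 (without control 2) over the libraries left out and was 0.055 in TPM, or -0.07 relative to the median of all genes there. Same-numbered libraries did not deviate together (correlations of -0.05, -0.08 and 0.00), so no sign of pairing by number was seen. With 3 libraries per group this cannot exclude that same-numbered rats were handled together. With the replicate block there were 18 factor genes and 2790 genes in all at an unadjusted p below 0.05 (limma), against 22 and 3255 without it. Signs that turned belonged to genes whose intervals included 0, and the cause was not tested. Of the 63 genes, 16 turned in TPM: Eif1 (0.045), Eif3g (0.067), Eif4e (0.058), Eif4e2 (0.091), Eif4ebp2 (0.018), Eif4g2 (0.079), Eef1akmt1 (0.12), Eef1akmt2 (0.040), Eef2 (0.0011), Eif1ad (0.11), Eif2a (0.089), Eif2d (0.13), Eif2b3 (0.055), Eif3j (0.082), Eif3l (0.024) and Eif4a3 (0.065). After quantile normalization 9 turned: Eif1 (0.13), Eif3g (0.093), Eif4e (0.028), Eif4g2 (0.16), Eif5a2 (-0.022), Eef2 (0.063), Eif3j (0.0024), Eif4a3 (0.031) and Eif4h (0.0058). With the length trend removed 11 turned: Eif2ak3 (-0.016), Eif3g (0.040), Eif5b (-0.040), Eif5a2 (-0.086), Eef1akmt1 (0.016), Eef1akmt2 (0.017), Eif1ax (-0.031), Eif2d (0.031), Eif3a (-0.042), Eif4a3 (0.0070) and Eif4b (-0.063). With voom 4 turned: Eif4e2 (0.0034), Eef1akmt1 (0.021), Eif1ad (0.027) and Eif2d (0.055). Leaving out a library turned between 3 and 6 of the 63, and for those of them taken by the naming rule the differences then ranged between -0.034 and 0.10 for Eif5b, -0.085 and 0.099 for Eif5a2, -0.11 and 0.10 for Eef1akmt1, -0.087 and 0.027 for Eif4e2, and -0.21 and 0.0042 for Eef1akmt2. Of the other values recomputed for these genes and for the counts, 718 for single genes and 80 for counts and medians kept their direction and their side of the threshold, or stayed within 1.5 times the count. The 718 include settings that cannot change the difference of a gene, such as the filters and the replicate block. Depth limited Eef1akmt3, with 2 to 14 fragments per library, and Eif4ebp1, with 27 to 59.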
